A study of Daphnia magna with 80 samples.

Results

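The comparison set females of the water flea Daphnia magna at 40 to 45 days of age against females at 30 to 35 days. Its libraries were chosen by the sex and age in the sample titles: 11 of the 80 samples of the series, of which 5 belong to the older group (2 at 40 days and 3 at 45 days) and 6 to the younger one (3 at 30 days and 3 at 35 days). All were whole animals of the strain Bham2, kept under normal conditions in high hardness COMBO medium and frozen while the brood pouch was empty. Both groups therefore share the strain, the medium and the absence of a brood at freezing. The series as a whole followed females and males of this 1 strain with age, and RNA was measured as counts of sequenced fragments per gene. The labels do not say how many animals made up a sample, or whether replicates came from separate animals or cultures, so a p-value here reflects only how much these samples vary, in part perhaps for technical reasons.

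Daphnia females reproduce by cyclical parthenogenesis. Separately, each adult repeats a brood cycle, in which it moults and lays a clutch into the brood pouch on its back. It releases the young before the next moult. Genetically identical mothers can make daughters or sons, and the sex of an embryo is set by the environment of the mother rather than by sex chromosomes. In whole adults, the RNA is a mixture of gut, muscle, epidermis, fat cells, ovary and maturing eggs, so a level is an average over all of them. In such bulk samples, fewer cells of a type and less RNA per cell cannot be told apart.

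Gene counts per library lay between 10972582 (replicate 1 of 40 days) and 27789716 (replicate 1 of 45 days). The files give gene IDs without names, and the reference table held 0 of the 26646 IDs, so genes are given by ID and no function is attached to them. On a scale of sex-biased genes set in other libraries, where the mean of young females is 0 and that of young males 100, the 11 libraries lay between -12.1 and 40.6, and the 37 male libraries of the series between 85.8 and 116. Replicate 3 of 30 days stood apart from the other libraries. Its median correlation with the other 10 was 0.876, the lowest of the 11 (the highest, of replicate 1 of 45 days, was 0.94), and 4163 genes lay at least 2-fold from the median of the other 10, against 1045 to 2868 in the rest. Results are therefore also given without it where it changes a count.

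Between females of 40 to 45 days and females of 30 to 35 days, no gene passed the test: 0 of 15473 genes (0%) were called by the edgeR quasi-likelihood test at a Benjamini-Hochberg adjusted p under 0.05. The smallest adjusted p was 0.0585, and 2121 genes (13.7%) had an unadjusted p under 0.05. The log2 change of the median gene was -0.01, the median size of a change was 0.25, and 1185 genes differed by at least 2-fold by estimate. None of these differences passed the test. For some genes the libraries of the groups were still separate. The CPM (counts scaled to a common library size by TMM) of the 2 groups did not overlap for 327 genes (2.11% of those tested), of which 149 (0.963%) were higher and 178 (1.15%) were lower at 40 to 45 days.

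The count of 0 depended on the tool and on single libraries. DESeq2 called 638 genes on the same 11 libraries (152 higher, 486 lower), and limma-voom with quality weights called 451 (95 higher, 356 lower). Of these, 379 genes were called by both in the same direction, which is 59.4% of the DESeq2 list and 84% of the limma list. The edgeR test gave 626 of the 634 DESeq2 genes it tested an adjusted p under 0.2, and at that threshold it counted 953 genes (265 higher, 688 lower). Without replicate 2 of 35 days edgeR called 618 genes (107 higher, 511 lower), without replicate 1 of 45 days 6, and without replicate 3 of 30 days 4. With library sizes set by the synthetic spike-in RNA it called 158 (10 higher, 148 lower), and 4 when replicate 1 of 45 days was also left out.

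For many genes the data did bound the size of a change. The 95% confidence interval of the change lay wholly within 2-fold for 8854 genes (57.2%) and within 1.5-fold for 3665 genes (23.7%). It lay wholly beyond 2-fold for 108 genes and wholly beyond 1.5-fold for 323, intervals that are not adjusted for the number of genes. The median standard error of a change was 0.28 on the log2 scale.

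The 4 genes described next had the smallest p in each direction among those with a mean log2 CPM of at least 3 and no overlap between the groups. None was called, and they are named after their values were seen. APZ42_033831 stood at 437.1 and 421.4 CPM at 40 days and at 312.6, 363.1 and 522.8 CPM at 45 days, against 173.6, 140.0 and 226.4 CPM at 30 days and 179.1, 129.2 and 137.3 CPM at 35 days. Every older library was above every younger one, with means of 411.4 ± 79.5 CPM (SD, n = 5) at 40 to 45 days and 164.3 ± 36.7 CPM (SD, n = 6) at 30 to 35 days. The change was 1.33 ± 0.19 (SE) on the log2 scale, with an edgeR adjusted p of 0.0585.

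APZ42_020619 stood at 166.9 and 135.9 CPM at 40 days and at 101.9, 112.8 and 150.0 CPM at 45 days, against 41.35, 61.37 and 69.74 CPM at 30 days and 49.27, 56.69 and 38.34 CPM at 35 days. The 2 ages within each group overlapped, and the groups did not. The change was 1.34 ± 0.19 (SE) on the log2 scale, with an edgeR adjusted p of 0.0585.

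APZ42_030759 was the one of these genes with the largest difference. It stood at 14.63 and 19.51 CPM at 40 days and at 32.56, 19.67 and 40.41 CPM at 45 days, against 158.9, 119.8 and 116.6 CPM at 30 days and 173.5, 49.15 and 205.3 CPM at 35 days. Replicate 2 of 35 days was the lowest younger library and lay close to the highest older one. The change was -2.43 ± 0.37 (SE) on the log2 scale, with an edgeR adjusted p of 0.0666.

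APZ42_015250 stood at 120.3 and 135.5 CPM at 40 days and at 155.5, 164.6 and 139.1 CPM at 45 days, against 267.6, 257.3 and 257.0 CPM at 30 days and 279.0, 199.5 and 234.4 CPM at 35 days. The lowest younger library was again replicate 2 of 35 days. The difference was smaller than that of the other 3 genes, at -0.79 ± 0.14 (SE) on the log2 scale, with an edgeR adjusted p of 0.0794. All 4 genes were called by DESeq2 and by limma-voom, and none changed sign under any of the 25 alternatives tried on the pooled comparison. They were chosen by a small p and no overlap in the same libraries, which favours both outcomes, so neither is separate support.

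**Figure D1:**
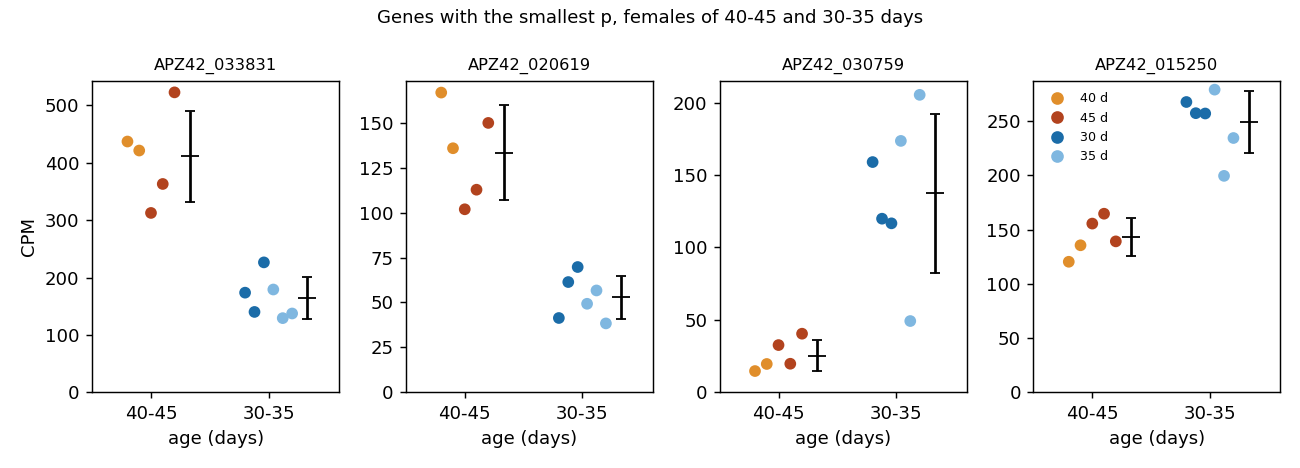
CPM of APZ42_033831, APZ42_020619, APZ42_030759 and APZ42_015250 in each of the 11 female libraries (points, coloured by age) in the groups of 40-45 and 30-35 days, with the mean and SD of each group in black. The groups do not overlap in any of the 4 panels, and for APZ42_030759 the lowest younger library, at 49.15 CPM, lies nearest to the older group.

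At other ages of females, 3 of these genes went up and down with no single direction. APZ42_033831 averaged 47.3 CPM at 15 days, 354.5 CPM at 25 days, 595.3 CPM at 60 days and 164.5 CPM at 80 days. APZ42_020619 averaged 38.99 CPM at 15 days, 328.4 CPM at 60 days and 133.5 CPM at 80 days, and the single library of 70 days held 36.88 CPM. APZ42_030759 varied within ages as well: at 55 days its libraries ranged from 0.20 to 62.74 CPM and at 75 days from 0.38 to 138.8 CPM. APZ42_015250 varied less, with averages of 170.7 to 252.2 CPM at 10 to 35 days and 90.27 to 178.8 CPM at 40 to 80 days.

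Females of 50 to 80 days against females of 10 to 25 days gave a comparison that shares no library with the 11 (17 and 11 libraries). There APZ42_020619 rose by 1.84 ± 0.27 (SE) on the log2 scale with an edgeR adjusted p of 3.95e-06, and APZ42_015250 fell by 0.40 ± 0.11 (SE) with an edgeR adjusted p of 0.00417. Both directions are those seen at 40 to 45 days. Of all 15842 genes tested there, 44.6% were called (23.9% higher, 20.7% lower), so a call in a given direction was common. The other named genes of the pooled comparison were not called there: APZ42_033831 had a log2 change of 0.65 ± 0.32 (SE, edgeR adjusted p = 0.102), and APZ42_030759 had one of 1.202 ± 0.716 (SE, edgeR adjusted p = 0.172), opposite in sign to its change at 40 to 45 days.

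The 4 ages inside the comparison were then fitted with a mean each (17025 genes tested). Of the pairs of neighbouring ages, 35 against 30 days, both inside the younger group, had the most calls. At 35 days 948 genes were higher (5.57%) and 649 lower (3.81%) than at 30 days, together 1597 genes (9.38%; edgeR adjusted p under 0.05). At 40 days 152 genes were higher (0.893%) and 49 lower (0.288%) than at 35 days, together 201 (1.18%). At 45 days no gene was higher and 12 were lower than at 40 days (0.0705%), where 960 genes had an unadjusted p under 0.05 in either direction and DESeq2 called 50 higher and 90 lower.

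The remaining pairs of ages were compared after these had been seen. Between 40 and 30 days 0 of 17025 genes (0%) were called by edgeR, with 2222 at an unadjusted p under 0.05, and DESeq2 called 742. At 45 days 22 genes were higher and none lower than at 35 days (0.129%), where DESeq2 called 537 higher and 311 lower. Against 30 days, 37 genes were higher (0.217%) and 59 lower (0.347%) at 45 days (96 genes, 0.564%). In the pooled comparison, the 30-day and 35-day libraries form 1 group, so the difference between them is part of its spread. The pairs of ages share libraries with each other, and their counts were not tested against each other.

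**Figure D2:**
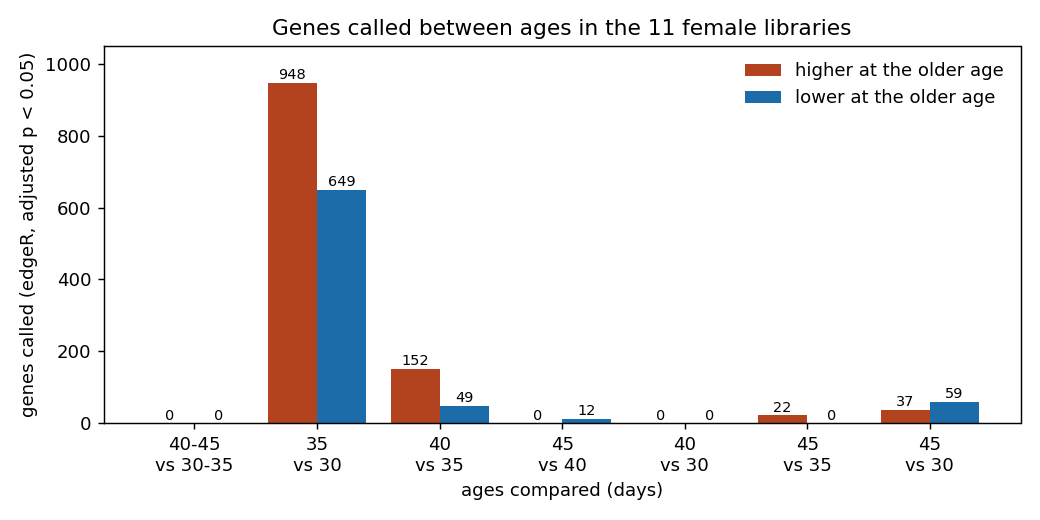
Number of genes called (edgeR quasi-likelihood test, adjusted p under 0.05) as higher or lower at the older age, for the pooled comparison (15473 genes tested) and the 6 pairs of ages (17025 genes tested). The pooled comparison has 0 calls, and 35 against 30 days has 948 higher and 649 lower.

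Single libraries moved these counts by more than 1.5 times. For 35 against 30 days edgeR called 680 genes without replicate 1 of 30 days, 808 without replicate 1 of 35 days and 709 without replicate 3 of 35 days, and the other 8 libraries left the count within 1.5 times (1262 without replicate 3 of 30 days). For 40 against 35 days the count was 81 and 7 without replicates 1 and 2 of 40 days, 3, 1648 and 4 without replicates 1, 2 and 3 of 35 days, 442, 58 and 314 without replicates 1, 2 and 3 of 30 days, and 72 and 57 without replicates 1 and 2 of 45 days. For 45 against 40 days it was 0, 0 and 1 without replicates 1, 2 and 3 of 45 days, 47 and 4 without replicates 1 and 2 of 40 days, and 111 and 23 without replicates 1 and 3 of 30 days. For 40 against 30 days it was 27 without replicate 1 of 40 days, 18 without replicate 1 of 30 days and 487 without replicate 2 of 35 days.

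The later pairs moved in the same way. For 45 against 35 days the count was 87, 10 and 12 without replicates 1, 2 and 3 of 45 days, 11 without either library of 40 days, 1, 842 and 1 without replicates 1, 2 and 3 of 35 days, and 14 and 45 without replicates 2 and 3 of 30 days. For 45 against 30 days it was 53, 1 and 47 without replicates 1, 2 and 3 of 45 days, 23 and 14 without replicates 1 and 2 of 30 days, and 12, 600 and 17 without replicates 1, 2 and 3 of 35 days. With spike-in library sizes the split of higher and lower calls became 144 and 410 for 35 against 30 days, 153 and 13 for 40 against 35 days, 11 and 6 for 45 against 35 days, and 4 and 325 for 45 against 30 days. Those sizes moved the change of the median gene to -0.25, 0.23, -0.13 and -0.31 on the log2 scale, and to -0.33 for 45 against 40 days, so directions here are relative to the median gene.

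The genes named next had the smallest p between 35 and 30 days among called genes without overlap, so each library shows the difference by choice. APZ42_001489 stood at 41.09, 45.89 and 45.73 CPM at 35 days, against 10.42, 12.60 and 12.60 CPM at 30 days. At 40 days it held 27.18 and 19.16 CPM and at 45 days 31.27, 26.65 and 23.95 CPM, so that all 5 older libraries lay between the ages of the younger group. The change at 35 days was 1.90 ± 0.18 (SE) on the log2 scale, with an edgeR adjusted p of 0.00136.

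APZ42_013224 had the same order. It stood at 24.23, 25.23 and 26.12 CPM at 35 days, against 5.91, 6.76 and 9.10 CPM at 30 days, while the 5 older libraries lay between 14.23 and 15.34 CPM. The change at 35 days was 1.80 ± 0.19 (SE) on the log2 scale, with an edgeR adjusted p of 0.00168. In the pooled comparison, its log2 change was -0.13 ± 0.39 (SE, edgeR adjusted p = 0.931). There the younger group held both the lowest and the highest libraries.

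Among genes that fell at 35 days, APZ42_026926 stood at 24.94, 28.44 and 25.24 CPM at 35 days, against 153.7, 141.8 and 189.0 CPM at 30 days, a log2 change of -2.63 ± 0.22 (SE, edgeR adjusted p = 9e-04). At 40 days it held 296.4 and 271.3 CPM, a log2 change of 3.44 ± 0.24 (SE, edgeR adjusted p = 0.00024) against 35 days, the smallest p of that pair of ages. At 45 days it held 174.3, 143.5 and 236.8 CPM, a log2 change of 2.83 ± 0.22 (SE, edgeR adjusted p = 0.000911) against 35 days. The 35-day libraries were low and the other 3 ages high. Among later ages, its average was 631.0 CPM at 60 days and 222.3 CPM at 80 days, and the single library of 70 days held 191.2 CPM.

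APZ42_014824 was present at 30 and 40 days and nearly absent at 35 and 45 days. Its libraries held 279.4, 144.8 and 76.97 CPM at 30 days, 0.60, 0.28 and 0.44 CPM at 35 days, 56.81 and 94.08 CPM at 40 days, and 0.49, 0.39 and 1.32 CPM at 45 days. Behind the low values were 6 to 15 counts in a library. The log2 change was -8.57 ± 0.66 (SE, edgeR adjusted p = 0.000682) at 35 against 30 days and -6.81 ± 0.62 (SE, edgeR adjusted p = 0.00433) at 45 against 40 days.

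**Figure D3:**
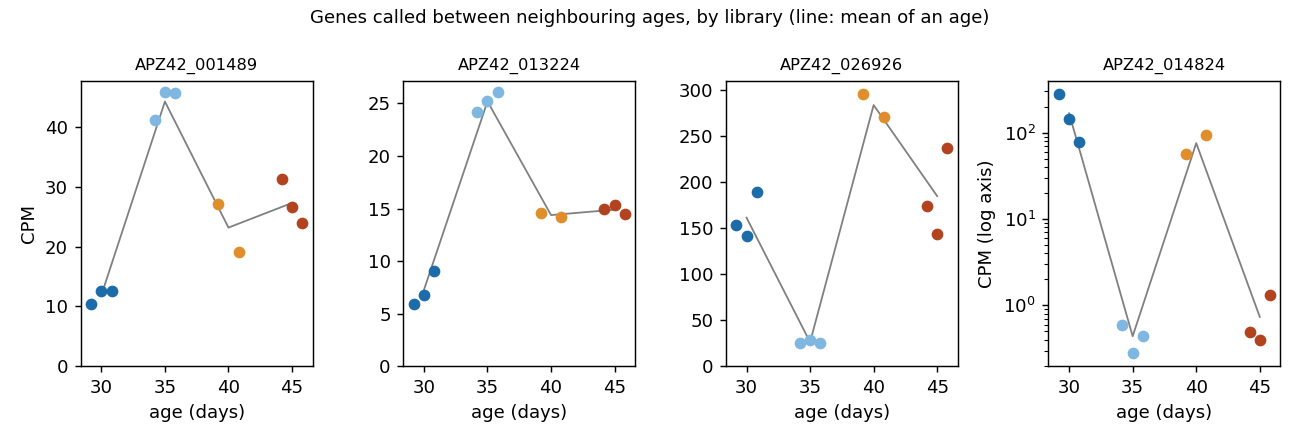
CPM of APZ42_001489, APZ42_013224, APZ42_026926 and APZ42_014824 in the 3, 3, 2 and 3 libraries of 30, 35, 40 and 45 days (points), with the mean of each age joined by a line. The axis of APZ42_014824 is logarithmic: its 35-day and 45-day libraries hold at most 1.32 CPM and its 30-day and 40-day libraries at least 56.81 CPM.

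The other genes named by the smallest p differed in which age was high or low. APZ42_030951 stood at 31.61 and 35.83 CPM at 40 days, against 4.26, 3.96 and 4.46 CPM at 35 days, a log2 change of 3.002 ± 0.26 (SE, edgeR adjusted p = 0.000886). Its 45-day libraries held 6.10 to 9.24 CPM and its 30-day libraries 18.21 to 31.91 CPM. APZ42_008152 fell to 5.10 and 5.21 CPM at 40 days, against 21.94, 12.61 and 21.22 CPM at 35 days, a log2 change of -1.84 ± 0.28 (SE, edgeR adjusted p = 0.0193).

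APZ42_001558 fell to 11.23 and 6.94 CPM at 40 days, against 25.92, 37.93 and 39.88 CPM at 35 days, a log2 change of -1.93 ± 0.30 (SE, edgeR adjusted p = 0.0193). Its 45-day libraries, at 22.45 to 31.86 CPM, overlapped those of 35 days, and its 30-day libraries held 9.90 to 14.10 CPM. APZ42_023956 rose to 49.65, 39.87 and 96.22 CPM at 45 days, against 5.84, 4.19 and 6.44 CPM at 35 days, a log2 change of 3.50 ± 0.39 (SE, edgeR adjusted p = 0.014). APZ42_019612 rose to 17.88, 23.40 and 17.70 CPM at 45 days, against 8.07, 6.24 and 7.15 CPM at 30 days, a log2 change of 1.46 ± 0.20 (SE, edgeR adjusted p = 0.019). Leaving out 1 library or another alternative ended the call of APZ42_008152 in 5, of APZ42_001558 in 4, of APZ42_023956 in 2 and of APZ42_019612 in 5 of 18 cases, and that of APZ42_030951 in 0.

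Of the 4 genes with the smallest p in the pooled comparison, 3 were called between the neighbouring ages of the 2 groups. At 40 against 35 days the log2 change of APZ42_020619 was 1.66 ± 0.27 (SE, edgeR adjusted p = 0.0254), that of APZ42_033831 was 1.54 ± 0.27 (SE, edgeR adjusted p = 0.0386) and that of APZ42_030759 was -3.06 ± 0.56 (SE, edgeR adjusted p = 0.0424). APZ42_015250 had a log2 change of -0.89 ± 0.20 there (SE, edgeR adjusted p = 0.06). None of the 4 was called between 35 and 30 days or between 45 and 40 days. Their choice by a small pooled p and no overlap of the groups favours genes that differ little inside a group. The pooled comparison and this pair share the libraries of 35 and 40 days.

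The 12 genes that were lower at 45 than at 40 days had log2 changes of -2.07 to -10.80, and APZ42_014824 and APZ42_014848 had the smallest p among those named by the rule. All 12 were also called lower at 35 than at 30 days, where 3.81% of all 17025 genes were. They are 1.85% of the 649 genes lower there. The 2 pairs of ages share no library, but both were tested in 1 model of the 11 libraries and are not fully independent. Their summed CPM was 3319, 2045 and 892 in the 30-day libraries, 15.03, 13.77 and 13.94 in the 35-day libraries, 432.6 and 1126 in the 40-day libraries and 23.26, 14.46 and 19.86 in the 45-day libraries. Each group of the pooled comparison thus held 1 age with high and 1 age with low levels. These genes were chosen in these libraries, so the sums are a description.

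APZ42_014848 shows the spread within an age. It held 29.25 and 212.7 CPM at 40 days, against 1.19, 0.74 and 0.79 CPM at 45 days, a log2 change of -7.02 ± 0.78 (SE, edgeR adjusted p = 0.014). The 2 libraries of 40 days lay far apart, and both were above all 3 of 45 days. At 45 against 30 days it fell by 8.78 ± 0.81 (SE) on the log2 scale, with an edgeR adjusted p of 0.00246. Of 18 alternatives 4 ended its call at 45 against 40 days and 1 that at 45 against 30 days (without replicate 2 of 45 days, adjusted p = 0.0538 by edgeR). The call of APZ42_014824 at 45 against 40 days was ended by 2.

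All 12 genes belonged to a list of 2993 genes at least 2-fold higher in males than in females at 8 to 25 days, ages outside the 11 libraries. That list is 17.8% of the 16832 genes tested between the sexes, of which 62% were called in either direction and 34.3% as higher in males. All 12 were also in the list of genes that rose in females of 50 to 80 days, which is 11.1% of the genes tested there. In males the sum of the 12 lay between 1243 and 5137 CPM (median 2561, n = 37). Across the 28 female libraries outside the 11, the levels of the 12 had a lowest pairwise correlation of 0.682 and a median of 0.872, values that share each library's depth and scaling.

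**Figure D4:**
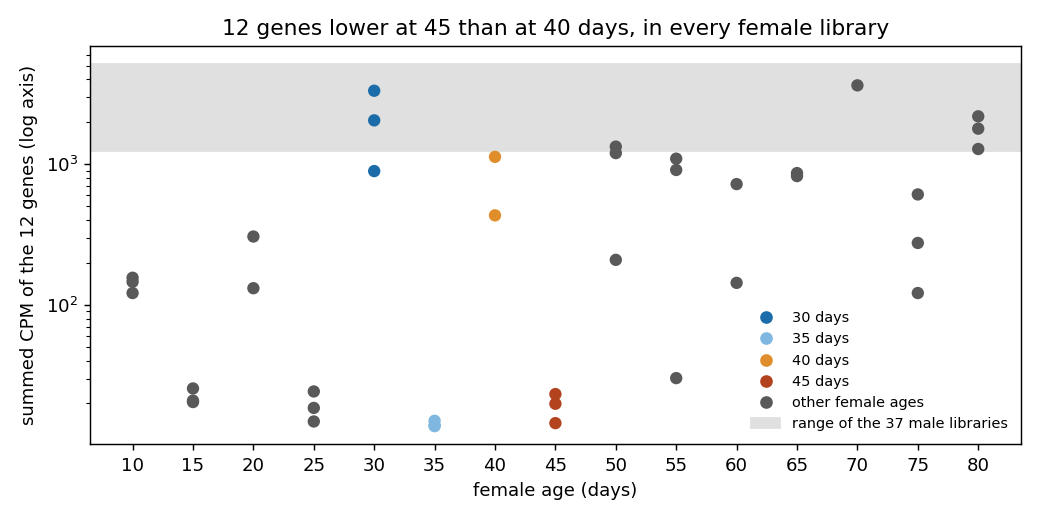
Summed CPM of the 12 genes lower at 45 than at 40 days (log axis) in each of the 39 female libraries by age in days, with the range of the 37 male libraries, 1243 to 5137 CPM, as a grey band. The 35-day and 45-day libraries hold 13.77 to 23.26 CPM, the 40-day libraries 432.6 and 1126 CPM, and the 30-day libraries 892 to 3319 CPM.

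Transcripts nearly limited to males were also counted. A list of 58 such genes was taken from other libraries (a median of at least 5 CPM in males of 8 to 25 days and under 0.1 CPM in females of 10 to 25 days). Their summed level was 245.0 and 151.1 CPM at 40 days and 2.36, 3.18 and 4.37 CPM at 45 days, against 435.5, 41.90 and 25.03 CPM at 30 days and 2.58, 1.62 and 1.90 CPM at 35 days. Each library of 30 and 40 days was above each of 35 and 45 days, and the pooled groups overlapped. In males of all ages the sum lay between 549 and 2625 CPM (median 1512, n = 37), and in females of 10 to 25 days between 0.55 and 160.5 CPM (median 3.97, n = 11), a range that held 2 of the 3 libraries of 30 days and 1 of the 2 of 40 days. In females of 50 to 80 days it lay between 1.86 and 519 CPM (n = 17), a range that held every library of 30 and 40 days. Such levels are thus not particular to 30 and 40 days.

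Within the list, 24 and 36 of the 58 genes reached 1 CPM in the libraries of 40 days and 0 in those of 45 days. In those of 30 days 29, 10 and 8 did, and in those of 35 days 0. Replicate 2 of 40 days was the only female library in which all 58 were detected. Replicate 1 of 40 days had 34 detected, and no other female library had more than 50. The sum was 16.2% and 10% of the male median sum in the libraries of 40 days, against 28.8%, 2.77% and 1.66% in those of 30 days. Like the 12 genes, these transcripts were higher at 30 and 40 days than at 35 and 45 days. At 40 days the order of replicates 1 and 2 was opposite, at 432.6 and 1126 CPM for the 12 genes and 245.0 and 151.1 CPM here. The 58 genes and the male-biased genes described next were chosen in the same young males and females. All 12 genes are male-biased too, so these results are not independent. The part of the male-limited transcripts in the other results was not tested.

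Lists of sex-biased genes and of genes that differ between young and old females were described by their counts. Between 35 and 30 days, 546 genes of the female-biased list (31.6% of the 1730 tested) were higher and 19 (1.1%) lower, with a median log2 change of 0.79. Of the male-biased list 6 (0.232% of the 2585 tested) were higher and 295 (11.4%) lower, with a median of -0.78. Over all 17025 genes 5.57% were higher and 3.81% lower, and the median was -0.01. At 40 against 35 days, 67 male-biased genes (2.59%) were higher and 0 lower (median 0.76), and 18 female-biased genes (1.04%) were higher and 22 (1.27%) lower (median -0.42), beside 0.893% and 0.288% of all genes. In the pooled comparison, 0 genes of either list were called, and the medians were 0.07 for 2101 male-biased and 0.00 for 1696 female-biased genes, beside -0.01 for all genes.

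Genes that differ between young and old females were taken from 50 to 80 against 10 to 25 days, where 3787 genes were higher and 3284 lower, together 7071 of 15842 (44.6%; edgeR adjusted p under 0.05). With spike-in library sizes that split was 369 higher and 8762 lower, with a median gene change of -0.77 on the log2 scale, so these directions too are relative to the median gene. The list of rising genes (1756 called and at least 2-fold) and that of falling genes (1021) shared no library with the 11. In the pooled comparison 0 genes of either list were called. The median log2 change was 0.21 for 1588 rising genes and 0.01 for 1014 falling genes, beside -0.01 for all genes.

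Inside the younger group, the lists were far from the median of all genes. At 35 against 30 days 443 falling genes (43.4% of the 1020 tested) were higher and 1 was lower (median 1.05), and 3 rising genes were higher and 251 (14.4% of the 1743 tested) lower (median -0.79). Over all genes 5.57% were higher and 3.81% lower. Of the 948 genes higher at 35 days, 944 were tested in the older females, and 846 of them (89.6%, and 25.8% of the 3284) were called lower at 50 to 80 days. Of the 649 lower at 35 days, 647 were tested and 474 (73.3%, and 12.5% of the 3787) were called higher at 50 to 80 days. The background in that comparison was 20.7% of genes called lower and 23.9% called higher. Across 15804 genes the 2 log2 changes had a Pearson correlation of -0.599 and a Spearman correlation of -0.603, as a description across genes, which are not independent replicates. For the pooled comparison, the same correlations were 0.019 and 0.115 across 15289 genes.

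At 40 against 35 days the direction was the other way. There 86 rising genes (4.93%) were higher and 0 lower (median 0.74), and 7 falling genes (0.686%) were higher and 9 (0.882%) lower (median -0.44), beside 0.893% higher and 0.288% lower over all genes. At 45 against 35 days 15 rising genes (0.861%) were higher and 0 lower (median 0.55), and 0 falling genes were called in either direction (median -0.40), beside 0.129% higher and 0% lower over all genes. At 45 against 30 days 28 falling genes (2.75%) were higher and 1 lower (median 0.69), and 0 rising genes were higher and 39 (2.24%) lower (median -0.12), beside 0.217% higher and 0.347% lower over all genes. These pairs share libraries with each other.

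A score for each library placed it between the young and the old females (0 for the mean of females of 10 to 25 days, 100 for the mean of those of 50 to 80 days, from the difference between the rising and falling lists). The libraries of 30 days scored 81.9, 51.1 and 46.5, those of 35 days 1.19, -13.9 and 8.04, those of 40 days 36.3 and 46.3, and those of 45 days 22.9, 15.6 and 50.2. The 35-day libraries lay below the other 8 libraries, and replicate 1 of 30 days was the highest of the 11. The older group averaged 34.3 ± 14.8 (SD, n = 5) and the younger 29.1 ± 36.5 (SD, n = 6), and the groups overlapped.

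**Figure D5:**
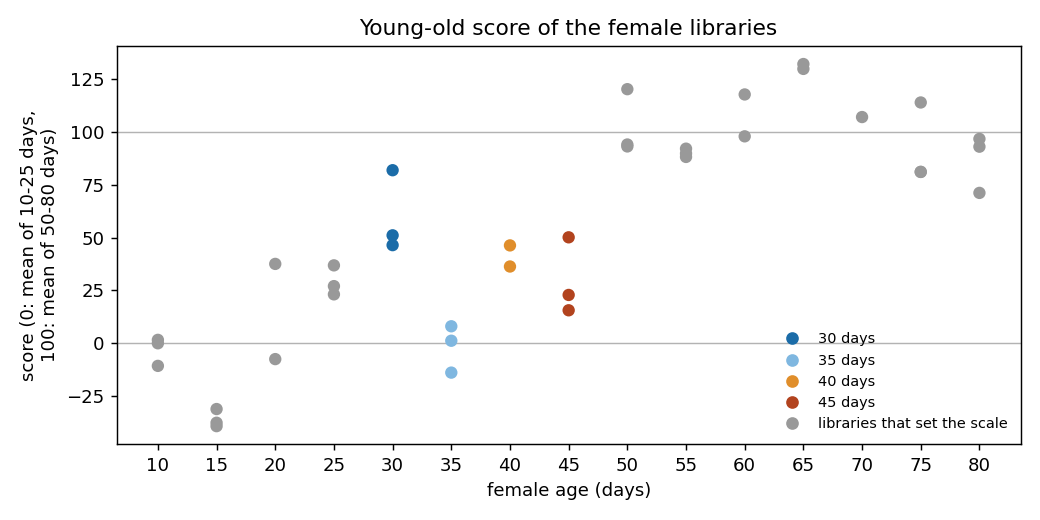
Young-old score of each of the 39 female libraries by age in days, where 0 is the mean of the libraries of 10 to 25 days and 100 that of the libraries of 50 to 80 days (grey points, which set the scale). The 35-day libraries lie between -13.9 and 8.04, the 30-day libraries between 46.5 and 81.9, and the 5 libraries of 40 and 45 days between 15.6 and 50.2.

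Males were sampled at the nearest ages in other libraries: 6 of 38 and 40 days against 9 of 30, 33 and 35 days, with none of 45 days. There 12 genes were higher (0.0741%) and 9 lower (0.0556%), together 21 of 16194 (0.13%; edgeR adjusted p under 0.05). DESeq2 with its own size factors called 121. With spike-in library sizes edgeR called 0, with 387 genes at an unadjusted p under 0.05. None of the 4 genes named in the pooled female comparison was called in males, where APZ42_033831 had a log2 change of -0.04, APZ42_020619 of 0.45, APZ42_030759 of -0.38 and APZ42_015250 of -0.15. The male count lay between 4 and 129 when each of the 15 libraries was left out in turn. It was 129 without replicate 3 of 33 days, within 1.5 times without replicate 1 of 38 days or replicate 1 of 35 days, and between 4 and 13 without any of the others. Replicate 3 of 33 days held only 1599627 gene counts, the fewest of the 15, and the next lowest library held 10767026. The named male genes with the smallest p were APZ42_015044 (log2 change 1.01) and APZ42_033983 (1.58), both higher at 38 to 40 days, and APZ42_025854 (-0.90) and APZ42_033121 (-1.15), both lower. With spike-in library sizes none of these 4 was called, the only one of 21 alternatives that ended the calls of the first 3. The call of APZ42_033121 was also lost without replicate 2 of 38 days or any of the 3 replicates of 40 days, with edgeR adjusted p of 0.0544 to 0.0992.

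In females APZ42_015044 varied widely within both groups. It held 1563 and 964.5 CPM at 40 days and 342.2, 479.4 and 2177 CPM at 45 days, against 1167, 962.8 and 674.9 CPM at 30 days and 104.5, 82.99 and 74.34 CPM at 35 days. The 35-day libraries were low, and the other ages overlapped.

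The change in females less the change in males differed from 0 for 2 of 17232 genes (0.0116%; edgeR adjusted p under 0.05), 1 in each direction (0.0058%). APZ42_020116 averaged 19.76 ± 3.52 CPM (SD, n = 5) in the females aged 40 to 45 days and 13.05 ± 4.06 CPM (SD, n = 6) in the younger females. In males it averaged 7.33 ± 1.33 CPM (SD, n = 6) at 38 to 40 days and 14.63 ± 3.96 CPM (SD, n = 9) at 30 to 35 days. The difference of the changes was 1.66 ± 0.28 (SE) on the log2 scale, with an edgeR adjusted p of 0.0206. That call was lost in 9 of 33 alternatives, with an adjusted p of 0.0558 without replicate 3 of 45 days and 0.0565 without replicate 1 of 35 days among the females, and of 0.0553 to 0.1 without replicate 2 of 38 days or any of the 3 replicates of 40 days among the males.

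APZ42_021541 averaged 52.92 ± 8.41 CPM (SD, n = 5) in the females aged 40 to 45 days and 77.81 ± 11.9 CPM (SD, n = 6) in the younger females. In males it averaged 154.8 ± 25.8 CPM (SD, n = 6) at 38 to 40 days and 79.41 ± 17.2 CPM (SD, n = 9) at 30 to 35 days. The difference of the changes was -1.46 ± 0.23 (SE) on the log2 scale, with an edgeR adjusted p of 0.0141. This call was lost in 1 of 33 alternatives, that of spike-in library sizes (adjusted p = 0.294). With only 40 days set against 30 and 35 days in both sexes, 72 genes were called (52 higher, 20 lower), and DESeq2 with its own size factors called 124 over all ages of the window. With spike-in library sizes edgeR called 0 (747 at an unadjusted p under 0.05). With edgeR on all ages of the window, the count was 42 without male replicate 3 of 33 days, 9 without male replicate 1 of 35 days, 15 without female replicate 2 of 35 days, 10 without female replicate 1 of 30 days and 4 without female replicate 2 of 40 days or replicate 1 or 2 of 45 days. It was 1 without any of the 6 libraries that ended the call of APZ42_020116. Male replicate 3 of 33 days is the library with only 1599627 gene counts.

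Shares of counts per library were compared with an exact 2-sided permutation test over the 11 libraries. Relative to the gene counts outside the block of abundant genes described in the next paragraph, spike-in RNA came to 1.03% and 1.04% at 40 days and 1.603%, 1.07% and 1.07% at 45 days, against 0.816%, 1.01% and 0.965% at 30 days and 0.987%, 1.02% and 1.16% at 35 days. The mean log2 share was higher by 0.21 at 40 to 45 days, a difference within the spread between libraries (exact permutation p = 0.13, adjusted over the 2 shares tested 0.26). It was 0.26 without replicate 3 of 35 days, where the exact permutation p was 0.00794, and 0.09 without replicate 1 of 45 days.

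A block of 7 abundant genes whose levels vary together, led by APZ42_024615, took 23.2% and 4.96% of the gene counts at 40 days and 10.9%, 11.3% and 10.5% at 45 days, against 12.3%, 27.8% and 26.6% at 30 days and 11.4%, 9.80% and 1.03% at 35 days. The extremes of the block fell inside single ages, and the groups overlapped. The mean log2 share differed by 0.10 (exact permutation p = 0.974, adjusted 0.974). It differed by -0.55 without replicate 3 of 35 days and by -0.17 without replicate 1 of 40 days. APZ42_024615 had a log2 change of -0.47 ± 0.67 (SE, edgeR adjusted p = 0.833), and none of the 7 genes was called in the pooled comparison.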

How the data were processed

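The authors deposited a table of counts, whole numbers per gene ID and not normalised. Its 7 rows of synthetic spike-in RNA stayed out of library sizes and tests. Per the labels' protocols, mRNA was sequenced as read pairs from Illumina TruSeq libraries. The submitters' processing notes name TopHat2 2.1.1 and DESeq2 1.20. The counter, its use of strand, the build and the annotation were not given in the sources used here. Genes that overlap or have near-identical copies therefore have uncertain counts. The authors' 3 tables of their own results were not used here, nor were 3 samples that the labels mark as mislabelled.

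The tests were edgeR 4.0.16 quasi-likelihood F-tests in R 4.3.3, with TMM sizes, filterByExpr and Benjamini-Hochberg adjusted p under 0.05, and the code was tested on simulated data. CPM use TMM-scaled sizes and log2 CPM a prior count of 2. Each comparison used its own libraries, with no covariate except age for the sex lists. Alternatives used DESeq2 1.42.0, limma 3.58.1 (voom with quality weights), other library sizes, no low-count filter, a replicate block, all female libraries and leaving out each library. Figures were drawn with matplotlib 3.10.9.

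Named genes are at most 2 higher and 2 lower per comparison, those with the smallest p among called genes with a mean log2 CPM of at least 3 and, except for the difference between the sexes, no overlap between groups. Where no gene was called, the same rule was applied without the call, after the values were seen. The groups, lists and tests were chosen with earlier results of these data known.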

Additional observations from a re-analysis of the deposited data

Results flagged for a closer look

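Spike-in RNA came to 1.603% of the gene counts outside the block of abundant genes in replicate 1 of 45 days, which lay far above the other 4 libraries of its group (a gap of 0.93 of the range of the 5 libraries). In males of 30 to 35 days, APZ42_033121 stood at 155.5 CPM in replicate 3 of 33 days, the highest of the 9 libraries by a wide gap (0.625 of their range). That library held only 1599627 gene counts. A library stood apart in this way in 2 of 36 groups looked at, and chance marks about 1 in 20.

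The change with age differed between the sexes for APZ42_020116, by 1.66 on the log2 scale (females less males), and for APZ42_021541, by -1.46. Both were tested as a difference of the changes with edgeR.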

How the results depend on the processing

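Calls are given here as totals, and directions stand in the report where they moved. For 40 to 45 against 30 to 35 days, edgeR called 0 genes. It called 4 with no low-count filter, 3 without the block of abundant genes, 6 with the average of the 4 age means, 5 in libraries of the low SIRV7 to SIRV1 ratio alone (the high ones were too few for a fit), 159 in all 39 female libraries, 158 with spike-in sizes and 4 with spike-in sizes without replicate 1 of 45 days. The ratio is that of the counts of the spike-in rows SIRV7 and SIRV1, with low and high libraries divided at a log2 value of -0.10. Of the older libraries 4 were low and 1 was high, and of the younger 3 were low and 3 high, so the ratio was not balanced between the groups. DESeq2 called 638 and limma-voom 451, and leaving out 1 library gave 0 to 618. For 35 against 30 days the counts were 2571 with DESeq2, 554 with spike-in sizes and 680 to 1516 with 1 library left out. The next counts are with no filter, DESeq2, all 39 female libraries and 1 library left out. They were 457, 1485, 516 and 3 to 1648 for 40 against 35 days, and 58, 140, 46 and 0 to 111 for 45 against 40 days, with 50 for spike-in sizes. They were 56, 742, 54 and 0 to 487 for 40 against 30 days. For 45 against 35 days they were 57, 848, 198 and 1 to 842, with 35 for RLE size factors and 38 without the abundant block. For 45 against 30 days they were 310, 939, 226 and 1 to 600, with 329 for spike-in sizes. In males (no filter, DESeq2, spike-in sizes, 1 library left out) they were 11, 121, 0 and 4 to 129, and for the difference between the sexes 1, 124, 0 and 1 to 42, with 72 for matched ages. The causes were not tested. The calls of 50 to 80 against 10 to 25 days and of males against females stayed within 1.5 times under every alternative tried, but fewer were tried. Neither was fitted with 1 library left out. Males against females was refitted only with RLE size factors and with no low-count filter. Leaving out 1 library gave a spike-in share difference of 0.091 to 0.258 (stronger without replicate 3 of 35 days, 0.258) and a block share difference of -0.554 to 0.396, and the block share as a linear percent differed by -2.65 percentage points. The named genes kept their direction under every alternative, with 50 calls lost and 30 gained. They were chosen by a small p in the same libraries, which favours a stable direction.

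Libraries that share a replicate number were no more alike than others. Their median correlation of deviations was -0.007 (15 pairs), against -0.008 for different numbers (30 pairs), and 3 of 11 libraries correlated best with their own number. So few pairs cannot settle whether a number marks a shared culture or batch, which the labels do not say. With a replicate block the calls were 0 for the pooled comparison, 1124 for 35 against 30 days, 35 for 40 against 35 days, 2 for 45 against 40 days, 8 for 45 against 35 days, 14 for 45 against 30 days, 6 in males and 1 for the difference between the sexes. With 2 libraries at 40 days, a fit without 1 of them assumes that the other varies like the rest.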

Other observations

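The 12 genes lower at 45 than at 40 days varied at other female ages too, in libraries that did not choose them. At 55 days their summed level was 30.20 CPM in replicate 1, and 1093 and 908.7 CPM in the other replicates. At 25 days it was 14.86, 18.55 and 24.28 CPM, and the single library of 70 days held 3625 CPM, the highest of the 39 female libraries. All 3 libraries of 15 days held 20.42 to 25.50 CPM.

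Across the 58 genes nearly limited to males, the profile of replicate 2 of 40 days had a Spearman correlation of 0.703 with the male mean, and that of replicate 1 of 40 days one of 0.313. The 3 libraries of 30 days had correlations of 0.198 to 0.301. These are descriptions across genes that share a choice by their level in males.

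Replicates of an age were more alike than libraries of the 2 groups. The median correlation of log2 CPM was 0.91 over the 30 pairs of an older and a younger library, 0.924 over the 15 pairs of different ages within a group and 0.945 over the 10 pairs of the same age. The median SD of a gene between replicates was 0.352 at 30 days, 0.342 at 35 days, 0.207 at 40 days (n = 2) and 0.279 at 45 days, on the log2 scale.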
